A study of Mus musculus with 8 samples.

Results

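The genes of 9 SR splicing factors and of a kinase that acts on them were followed in mouse mammary epithelial cells treated with TGF-β: *Srsf1*, *Srsf2*, *Srsf3*, *Srsf4*, *Srsf5*, *Srsf6*, *Srsf7*, *Tra2a*, *Tra2b* and *Clk1*. They were taken from the gene counts by symbol and make up 10 of the 37310 genes counted and 10 of the 13028 genes with enough counts to be tested. The RNA came from NMuMG cells, an epithelial line derived from normal mouse mammary gland, in 8 libraries, 2 biological replicates for each of 4 groups. The groups were control cells and cells labelled knockout, each without treatment or after 2 h with 10 ng/ml TGF-β. In the knockout, a fragment between guide sites in the promoter and first exon of the long non-coding RNA gene *Lnc-Nr6a1* had been deleted with CRISPR-Cas9. Homozygous clones were obtained. How many clones went into the libraries is not given in the sources used here, so that the genotype and the clone cannot be told apart.

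SR proteins bind short enhancer sequences in exons through RNA recognition motifs and recruit the U1 and U2 particles of the spliceosome through tails rich in arginine and serine (RS domains). Kinases of the CLK family phosphorylate these tails in the nucleus and release SR proteins from nuclear speckles, while SRPK kinases act mainly in the cytoplasm and favour their import. Many SR genes limit their own level through exons whose inclusion brings a premature stop codon and decay of the mRNA, and *Clk1* keeps part of its transcripts in the nucleus with unspliced introns. In epithelial cells that turn mesenchymal under TGF-β, alternative splicing changes in many genes, and SRSF1 in particular is known for skipping an exon of *Mst1r* (Ron), which gives a receptor form that promotes motility.

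Library totals ran from 4297832 to 13574397 counts, and the shallowest library still held 123 counts of *Srsf4*, the rarest of the 10 genes, and 1673 of *Srsf1*. The targeted gene, *Lnc-Nr6a1* (annotated as *Gm13507*), had 3 and 14 counts in untreated control cells, 25 and 35 in treated control cells, 11 and 7 in untreated cells labelled knockout and 0 in both of their treated libraries. These few counts, taken over the whole annotated gene and not over its deleted part alone, do not follow the labels of the untreated libraries, and every direction between untreated genotypes is given under that limit. TGF-β targets rose in both genotypes: *Smad7*, an inhibitor of the pathway, by 1.69 and 2.28 on the log2 scale in control and in knockout-labelled cells, and *Snai1*, a repressor of epithelial genes, by 4.23 and 3.99. Of 6 epithelial markers, 5 could be tested. All 6 summed to 5872 to 10938 CPM (counts relative to the TMM-scaled size of the library). *Krt8*, *Krt18* and *Krt19* carried most of this sum, with means of 2214, 2477 and 991 CPM in untreated control cells. *Cldn4* had a mean of 0.0603 CPM there, 0 in untreated cells labelled knockout, and 6.59 and 7.66 after TGF-β in control and knockout-labelled cells. *Epcam* was at 0 in 7 libraries and had 2 counts in the other. Fibroblast markers summed to at most 4.85 CPM, leukocyte markers to at most 5.32, endothelial markers to at most 0.847 and muscle markers to at most 0.441, with *Kdr* and *Cd3e* at 0 in every library.

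The SR genes lay far apart in level, and per length *Srsf2* stood first and *Srsf4* last, while most ranks between them depended on the length used. To compare genes, CPM was divided by the annotated exon length in kilobases (RPKM), averaged over the 8 libraries. *Srsf2*, whose protein stays in the nucleus and also acts in transcription elongation, reached 103 ± 14.6 RPKM (SD, n = 8). It was followed by *Srsf1*, the founding SR protein, at 70.7 ± 10.8 RPKM, by *Srsf6* at 69.1 ± 5.08 and by *Srsf7*, which carries a zinc knuckle beside its RNA recognition motif, at 63.3 ± 7.39. A middle group held *Srsf5* at 42.4 ± 8.31 RPKM, *Srsf3*, the smallest SR protein and an adaptor for mRNA export, at 41.0 ± 5.94 and *Tra2a* at 34.6 ± 3.66. *Clk1* at 16.9 ± 4.64 RPKM, *Tra2b* at 14.2 ± 1.92 and *Srsf4* at 7.52 ± 1.25 were lowest on this scale. Only 2 steps in this order separated neighbours in their full ranges, from *Tra2a* (28.2 to 39.9 RPKM) down to *Clk1* (13.4 to 27.1) and from *Tra2b* (11.8 to 17.6) down to *Srsf4* (5.53 to 9.17). *Srsf5* was above *Srsf3* in 3 of 8 libraries and *Clk1* above *Tra2b* in 5 of 8, so these pairs have no firm order. *Tra2a* and *Tra2b*, vertebrate relatives of the fly sex-determination factor transformer-2 with an RS domain on either side of the RNA recognition motif, were not alike in level. Exon length counts every annotated transcript, retained introns included. Per length of the longest coding transcript instead, a scale added after the data had been seen, *Srsf2* was still first (161 ± 22.8 RPKM) and *Tra2a* (34.9 ± 3.67), *Tra2b* (22.5 ± 3.04) and *Srsf4* (8.69 ± 1.44) were the last 3. *Clk1* (2105 bases in place of 8139) then stood at 65.3 ± 17.9 RPKM, above *Tra2a* in all 8 libraries, and *Srsf5* (1568 bases in place of 3988) at 108 ± 21.2, next after *Srsf2*. The step from *Tra2b* down to *Srsf4* separated the full ranges on both scales, whereas that between *Tra2a* and *Clk1* was reversed.

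**Figure D1:**
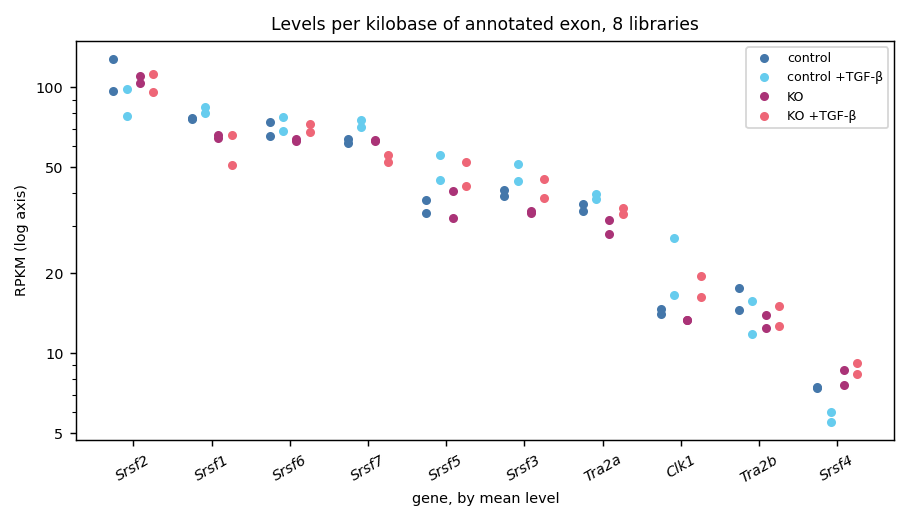
Levels of the 10 genes in RPKM (log axis) by gene in order of mean level, per length of all annotated exons, with a point for each of the 8 libraries coloured by group. *Srsf2* lies between 78.3 and 128 RPKM and *Srsf4* between 5.53 and 9.17, and the points of most neighbours overlap.

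Between the extremes of the 8 libraries the levels moved about as much as those of other expressed genes. The highest library exceeded the lowest 1.22 times for *Srsf6* and 2.03 times for *Clk1*, with a median of 1.58 over the 10 genes, against 1.73 over the 6910 tested genes with a mean of at least 26.9 CPM, the mean of *Srsf4*. Of those 6910 genes, 125 had a smaller ratio than *Srsf6* and 2160 a larger one than *Clk1*. *Srsf6* kept between 239 and 293 CPM in all libraries. The 10 genes did not follow a common course, since the 45 correlations between pairs of them over the 8 libraries ran from -0.831 to 0.897 with a median of 0.191, and 26 were above 0. These 8 libraries fall into the same 4 groups for every pair, so the correlations are a description.

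The summed level of the 9 SR genes is given as a description, without a test. It was 1786 and 1720 CPM in untreated control cells, 1861 and 1820 after TGF-β, 1604 and 1579 in untreated and 1666 and 1641 in treated cells labelled knockout. In each genotype, both treated sums lay above both untreated sums, and all 4 sums of the libraries labelled knockout lay below the 4 of control cells. With TGF-β, groups of 2 libraries lay apart upwards in 27.4% of all genes in control and 28.4% in knockout-labelled cells. Between genotypes, 25.2% lay apart downwards untreated and 27.4% treated. *Srsf1*, *Srsf2*, *Srsf3* and *Srsf6* carry most of these sums. After TGF-β, *Srsf1* had a mean of 335 CPM in cells labelled knockout against 470 in control cells, while *Srsf2*, *Srsf4* and *Tra2b* had higher means in the former. In bulk RNA, fewer cells that express a gene and less RNA in each cell cannot be told apart.

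Annotated products that do not code for the full protein are common among the 10 genes but not shared by all of them. In the annotation, 6 of 10 (*Srsf1*, *Srsf2*, *Srsf3*, *Srsf5*, *Tra2b* and *Clk1*) have a transcript marked for nonsense-mediated decay, 60% against 11.2% of 22380 protein-coding genes, and the same 6 have a retained-intron transcript, 60% against 23%. *Srsf4*, *Srsf6*, *Srsf7* and *Tra2a* have neither in this release (GENCODE vM1), which lists only 5, 3, 3 and 2 transcripts of them. *Clk1* and *Srsf5* have 13 annotated transcripts each, 5 of *Clk1* with a retained intron. A gene count sums these products, and a shift between the coding form and a decayed or intron-retaining form cannot be seen in it. The counts of 3 genes are also uncertain because near-identical copies exist elsewhere in the genome, 5 of *Srsf3*, 2 of *Tra2b* and 1 of *Tra2a* (at least 300 bases at 95% identity or more), and none was found for the other 7 genes. *Srsf4* shares 1551 exonic bases (43.3% of its exon length) with the antisense transcript *Gm12992*, which had 3 to 12 counts in a library, and *Srsf2* shares 293 bases (9.9%) with *Mfsd11* on the opposite strand.

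Promoters are shown because *Srsf4* and *Srsf7* passed the adjusted p threshold in the treated comparison of genotypes and because 4 other members share a motif. The sequences are RefSeq promoter windows of GRCm38.p6, 250 bases before to 50 after the start of the gene, found for 9 of the 10 genes (not for *Clk1*), with 3 windows for *Srsf4*, of which the first is shown, and 1 for each other gene. Each stretch has 60 bases around the first match of a motif, all before the start, 5′ to 3′ on the strand of the gene. The motifs were picked after the sequences had been seen. In the first 3 the capitals mark CGGAAG, the core bound by ETS factors, or its reverse complement. It lies in a window of *Srsf4*, *Srsf5* and *Srsf7* and in 16.9% of all 32851 windows on either strand (30.5% of the 9690 windows with at least 60% G and C). Its first match lies 210 bases before the start in the window shown of *Srsf4*, 90 in *Srsf5* and 217 in *Srsf7*.
Srsf4 (chr4:131873400-131873459, plus strand): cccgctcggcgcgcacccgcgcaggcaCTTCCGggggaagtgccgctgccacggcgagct
Srsf5 (chr12:80945382-80945441, plus strand): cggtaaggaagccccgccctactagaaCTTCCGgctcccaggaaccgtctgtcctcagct
Srsf7 (chr17:80207490-80207549, minus strand): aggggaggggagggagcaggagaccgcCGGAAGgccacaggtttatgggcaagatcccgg

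In the other 4 the capitals mark ACGTCA, the core of the cyclic AMP response element bound by CREB and ATF factors, or its reverse complement. A window of 4 of the 9 genes holds it, as do 7.51% of all windows (10.9% of the windows rich in G and C), and its first match lies between 49 and 82 bases before the start in each of the 4. *Tra2a* also holds the full palindrome TGACGTCA, which contains ACGTCA on both strands and occurs in 1.79% of all windows. CAGACA, a SMAD-binding core, was in no window of the 9 genes, in 21% of all windows and in 12.6% of the windows rich in G and C. These letters are a description of the windows, and binding was not measured here.
Srsf3 (chr17:29032551-29032610, plus strand): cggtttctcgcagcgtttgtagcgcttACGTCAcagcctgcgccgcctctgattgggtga
Srsf6 (chr2:162931431-162931490, plus strand): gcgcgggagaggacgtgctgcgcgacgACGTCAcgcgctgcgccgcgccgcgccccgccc
Tra2a (chr6:49264069-49264128, minus strand): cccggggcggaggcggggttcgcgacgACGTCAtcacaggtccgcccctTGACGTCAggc
Tra2b (chr16:22266035-22266094, minus strand): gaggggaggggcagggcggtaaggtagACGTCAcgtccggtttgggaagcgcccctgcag

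The first comparison asked whether TGF-β changed the genes in control cells within 2 h. No member passed the test, an adjusted p below 0.05 (edgeR's quasi-likelihood test, Benjamini-Hochberg over 13028 genes) with a log2 fold change beyond 0.5, which 9.16% of all genes passed. At an unadjusted p below 0.05 there were 2 members, *Clk1* and *Srsf5*, beside 26.8% of all genes, and DESeq2 called no member. In 6 members both treated libraries lay above both untreated ones and in 1, *Srsf4*, below, against 27.4% of all genes above and 26.3% below. The median log2 fold change of the members was 0.12, beside 0.016 over all genes, and their median absolute change was 0.24, beside 0.33.

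*Clk1* (chr1:58467033-58480910, minus strand, on NCBIM37 as all gene positions here) had the largest estimate, which rested on a single library. It was at 114 and 119 CPM in untreated control cells and at 135 and 221 CPM after TGF-β, so that replicate 2 of the treated control stood apart. The log2 fold change was 0.61 (SE 0.22, 95% interval 0.13 to 1.09, adjusted p = 0.107 by edgeR). Without that library it was 0.21 (SE 0.17), and without replicate 1 of the treated control it was 0.91 (SE 0.16) with an adjusted p of 0.0113. The replicates differed by 0.71 in log2 CPM for *Clk1*, while the median over all genes was 0.33 in this group and 0.20 to 0.22 in the others. The library with more *Clk1* had less of the TGF-β target *Smad7*, 67.0 against 130 CPM, and less of the tight-junction gene *Cldn4*, 1.38 against 11.8 CPM, and the part of that in the result was not tested.

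*Srsf5* (chr12:82046491-82051494, plus strand), first described as a growth response gene of regenerating liver, was at 150 and 134 CPM untreated and at 222 and 178 CPM after TGF-β in control cells. Its groups did not overlap, but the log2 fold change of 0.49 (SE 0.18, interval 0.089 to 0.90) had an adjusted p of 0.118 by edgeR. *Srsf4* (chr4:131429532-131457640, plus strand), one of the larger SR proteins, was at 26.8 and 26.5 CPM untreated and at 21.6 and 19.8 after TGF-β, a log2 fold change of -0.36 (SE 0.17, adjusted p = 0.210 by edgeR). *Srsf2* (chr11:116711215-116714408, minus strand) had a similar estimate of -0.35 (SE 0.18, adjusted p = 0.240), with overlapping groups, 380 and 286 CPM against 291 and 232. *Mfsd11*, with which *Srsf2* overlaps on the opposite strand, had a log2 fold change of -0.72 (adjusted p = 0.0773) in the same libraries, and without knowledge of the strand setting the 2 genes cannot be told apart in the shared bases.

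*Srsf3* (chr17:29169618-29180311, plus strand) was at 200 and 210 CPM before and at 227 and 263 after TGF-β (log2 fold change 0.26, SE 0.14, adjusted p = 0.283 by edgeR). *Srsf7* (chr17:80599429-80606629, minus strand) was at 152 and 147 against 179 and 169 CPM (0.22, SE 0.13, adjusted p = 0.298). Both stood higher in each treated library without passing the test. The 4 other members had log2 fold changes from -0.22 (*Tra2b*) to 0.14 (*Tra2a*) and adjusted p values of at least 0.473, *Srsf1* with 439 and 435 CPM untreated and 482 and 459 treated.

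**Figure D2:**
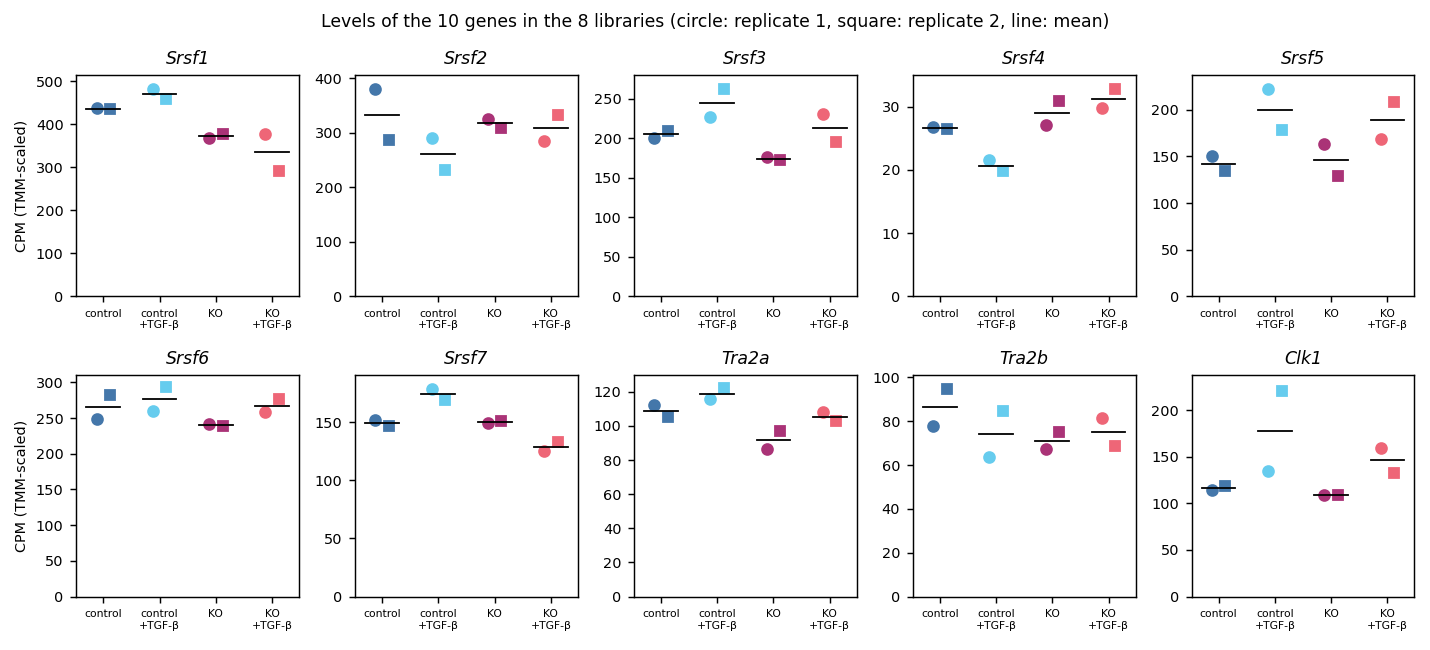
Levels of each of the 10 genes in CPM (TMM-scaled, axes from 0), by group, with a circle for replicate 1, a square for replicate 2 and a line at the mean. *Srsf4* is lowest in the treated control libraries at 21.6 and 19.8 CPM, *Srsf7* is lowest in the treated libraries labelled knockout at 125 and 133 CPM, *Srsf1* has its lowest value, 292 CPM, in replicate 2 of that group, and *Clk1* has a single high library at 221 CPM.

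The same comparison in the cells labelled knockout called no member either, beside 6.82% of all genes, and no member had an unadjusted p below 0.05, beside 22.7%. In 5 members both treated libraries were higher and in 1, *Srsf7*, lower, against 28.4% and 28.3% of all genes. The median log2 fold change was 0.13, beside 0.000 over all genes. *Clk1* was at 109 CPM in both untreated libraries and at 159 and 133 after TGF-β, a log2 fold change of 0.42 (SE 0.22, interval -0.065 to 0.90, adjusted p = 0.288 by edgeR). Here too the library with less *Clk1* had more *Smad7*, 207 against 132 CPM, and more *Cldn4*, 12.9 against 2.45 CPM. *Srsf5* was at 163 and 129 CPM before and at 169 and 209 after (0.38, SE 0.18, adjusted p = 0.254), with the lower treated library just above the higher untreated one. *Srsf3* was at 176 and 172 CPM before and 231 and 196 after (0.30, SE 0.14, adjusted p = 0.257). *Srsf7* was at 149 and 151 CPM before and at 125 and 133 after, which gave -0.22 (SE 0.13, adjusted p = 0.360). The other 6 had log2 fold changes between -0.16 (*Srsf1*) and 0.20 (*Tra2a*).

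Whether the response to TGF-β differed between the genotypes was tested with an interaction term. No gene of the 13028 passed an adjusted p below 0.05 with edgeR, while 1134 (8.70%) had an unadjusted p below 0.05 and DESeq2 called 30 genes, none of them a member. *Srsf7* had the smallest p among the 10 genes, an interaction of -0.44 on the log2 scale (SE 0.18, interval -0.85 to -0.032, adjusted p = 0.539 by edgeR), with opposite signs in the genotypes. For *Srsf4* the interaction was 0.47 (SE 0.24, interval -0.076 to 1.02, adjusted p = 0.616), and for *Clk1* it was -0.19 (SE 0.30, interval -0.87 to 0.49, adjusted p = 0.908). Of the 10 intervals of the interaction, only that of *Srsf4* reached beyond a 2-fold difference.

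Without treatment, the libraries labelled knockout and the control libraries did not differ in any member beyond the test's threshold, beside 1.83% of all genes called. No member had an unadjusted p below 0.05, beside 14.9% of all genes, and DESeq2 called no member. In 6 members (*Srsf1*, *Srsf3*, *Srsf6*, *Tra2a*, *Tra2b* and *Clk1*) both libraries labelled knockout lay below both control libraries and in *Srsf4* above, against 25.2% and 26.8% of all genes, and the median log2 fold change was -0.12, beside 0.018 over all genes. *Srsf1* (chr11:87860875-87867257, plus strand) was at 369 and 377 CPM against 439 and 435 in control cells (-0.23, SE 0.15, interval -0.56 to 0.10, adjusted p = 0.517 by edgeR). *Tra2b* (chr16:22244622-22266078, minus strand), which activates exons rich in GAA triplets, had the largest estimate, -0.28 (SE 0.19, interval -0.70 to 0.14, adjusted p = 0.541), with 67.2 and 75.1 against 77.9 and 94.8 CPM. *Tra2a* (chr6:49193920-49214051, minus strand), its close relative, was at 86.4 and 97.0 against 112 and 105 CPM (-0.24, SE 0.14, adjusted p = 0.470). *Clk1* barely differed, 109 CPM in both libraries labelled knockout against 114 and 119. *Srsf6* (chr2:162757264-162762857, plus strand) was at 242 and 239 CPM against 249 and 282. The interval of each of the 10 genes excludes a 2-fold difference between the untreated groups.

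After TGF-β, *Srsf4* was the only member that passed the test between genotypes, beside 15.0% of all genes called, 8.47% higher and 6.57% lower in cells labelled knockout. It was at 29.8 and 32.8 CPM there and at 21.6 and 19.8 in treated control cells, without overlap, and 366 and 413 against 230 and 187 reads lay behind these levels. The log2 fold change was 0.60 (SE 0.17, interval 0.22 to 0.98, 1.51-fold, adjusted p = 0.0434 by edgeR). The call stood close to the threshold. DESeq2 gave the same log2 fold change of 0.60 with an adjusted p of 0.0580. The call was also lost without the filter on low counts, with the replicate number as a block and in a fit of only the 4 libraries compared. Leaving out a library kept the log2 fold change between 0.54 and 0.68, but the call was lost for each of the 7 libraries other than replicate 1 of the treated control (adjusted p from 0.0690 to 0.220 by edgeR). The untreated control libraries, at 26.8 and 26.5 CPM, and the untreated libraries labelled knockout, at 27.1 and 31.0, were nearer to the treated libraries labelled knockout than to the treated control, and the 2 comparisons share the treated control libraries. The antisense transcript *Gm12992* had 4 and 12 counts in the treated libraries labelled knockout and 3 and 5 in treated control cells. Without knowledge of the strand setting, reads of the 2 genes cannot be told apart in the shared bases, and these counts do not show how such reads were assigned.

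*Srsf7* and *Srsf1* were lower in the treated libraries labelled knockout, with estimates under or close to the thresholds. *Srsf7* was at 125 and 133 CPM against 179 and 169 in treated control cells, without overlap, and its log2 fold change of -0.43 (SE 0.13, interval -0.72 to -0.15, adjusted p = 0.0487 by edgeR) passed the adjusted p, which 15.3% of all genes passed, but not the fold threshold. *Srsf1* was at 378 and 292 CPM against 482 and 459, again without overlap, and had a log2 fold change of -0.49 (SE 0.15, interval -0.82 to -0.16, adjusted p = 0.0516 by edgeR). The lower of its treated libraries labelled knockout was replicate 2. Without replicate 1 of that group, which leaves only the lower library, the log2 fold change of *Srsf1* was -0.68. Replicate 1, at 378 CPM, lay nearer to the treated control libraries, so the size of the estimate depends on which library is left out. In all, 3 members, *Srsf1*, *Srsf7* and *Tra2a*, lay lower without overlap and *Srsf4* higher, against 27.4% and 28.4% of all genes, and 3 members had an unadjusted p below 0.05, beside 31.4% of all genes.

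*Clk1* was at 159 and 133 CPM in the treated libraries labelled knockout, overlapping with the treated control libraries (135 and 221 CPM), with a log2 fold change of -0.29 (SE 0.21, adjusted p = 0.395 by edgeR). Its direction rested on the same single library, since the log2 fold change was 0.12 without replicate 2 of the treated control and -0.58 (adjusted p = 0.0354) without replicate 1. *Srsf2* was at 285 and 332 CPM against 291 and 232 (0.24, SE 0.18, adjusted p = 0.391), and its neighbour *Mfsd11* was higher by 0.96 (SE 0.22, adjusted p = 0.0214). The remaining 5 members had log2 fold changes from -0.20 (*Srsf3*) to 0.020 (*Tra2b*). The median of the 10 genes was -0.13, beside -0.012 over all genes, and the median absolute change was 0.22, beside 0.37.

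**Figure D3:**
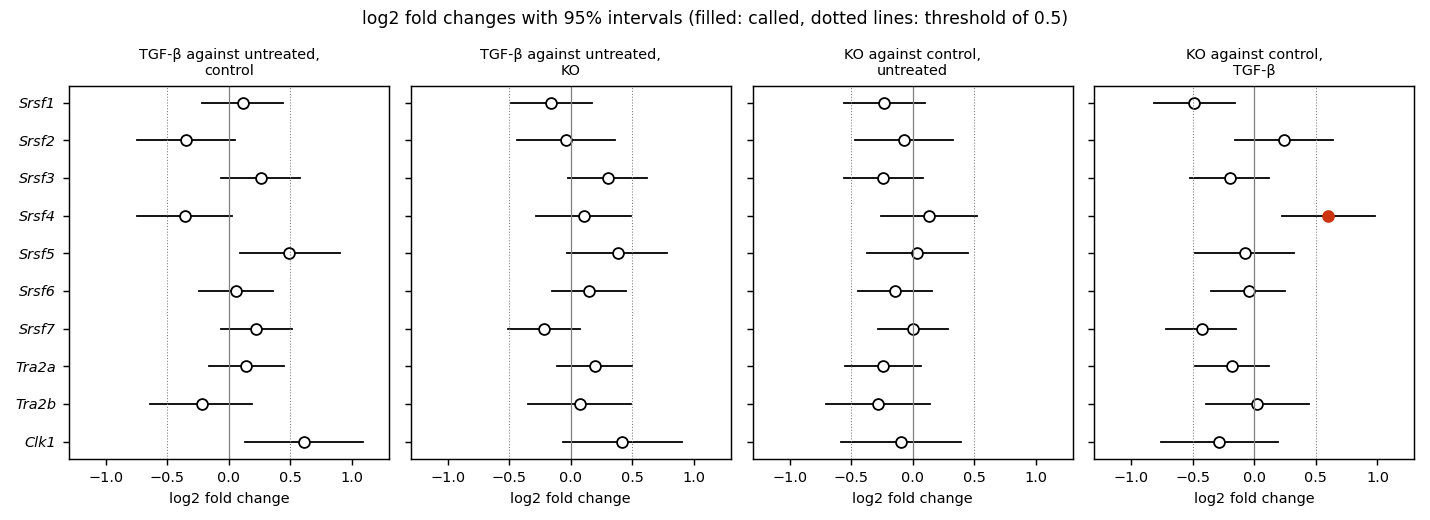
Log2 fold changes (x axis) of the 10 genes (y axis) in 4 comparisons, with 95% intervals as bars, filled points for genes called and dotted lines at the threshold of 0.5. *Srsf4* at 0.60 in the treated comparison of genotypes is the only filled point, and most other intervals include 0.

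**Figure D4:**
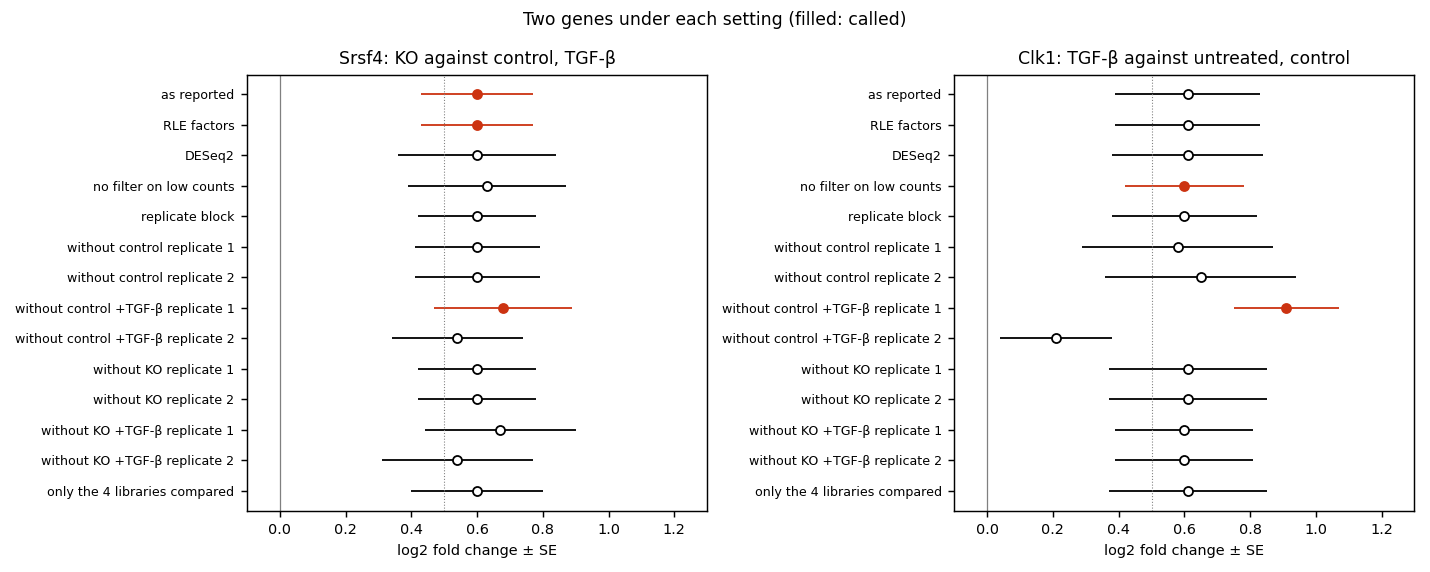
Log2 fold change ± SE of *Srsf4* between genotypes after TGF-β and of *Clk1* with TGF-β in control cells, under the settings named on the y axis, filled where called. *Srsf4* stays between 0.54 and 0.68 but is filled in only 3 of the settings drawn, while *Clk1* moves from 0.21 to 0.91 depending on which treated control library is left out.

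Other genes of the splicing machinery were counted from lists to place these values. Of 13 tested kinases, phosphatase subunits and the importer of SR proteins, none was called with TGF-β in either genotype or between untreated genotypes, and 1 was lower in the treated libraries labelled knockout (beside 6.57% of all genes), *Ppp1r8*, a nuclear targeting subunit of protein phosphatase 1, at 45.2 and 46.0 CPM against 75.3 and 65.8 (log2 fold change -0.63, SE 0.17, adjusted p = 0.0379 by edgeR). The relatives of *Clk1* did not pass the test with TGF-β in control cells, where *Clk2* had -0.49 (adjusted p = 0.156), *Clk3* 0.50 (0.0959) and *Clk4* 0.41 (0.212). *Srpk1* and *Srpk2*, the cytoplasmic kinases of SR proteins, had 0.19 (0.395) and -0.027 (0.944) on the same log2 scale.

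Of 9 other tested genes of proteins with RS domains, among them *Srsf9*, *Srsf10* and *Srsf11*, 2 fell with TGF-β in control cells and none rose, beside 583 genes that fell and 611 that rose among all 13028. *Srrm1*, a splicing coactivator, went from 81.5 and 85.2 CPM to 45.7 and 54.3 (log2 fold change -0.74, SE 0.15, adjusted p = 0.0214 by edgeR) and *Acin1*, a component of the exon junction complex and of apoptotic chromatin condensation, from 134 and 114 CPM to 81.4 and 86.2 (-0.57, SE 0.14, adjusted p = 0.0386). Both were higher in the treated libraries labelled knockout than in treated control cells, *Srrm1* at 72.5 and 84.6 CPM (0.65, SE 0.15, adjusted p = 0.0224) and *Acin1* at 133 and 145 CPM (0.73, SE 0.14, adjusted p = 0.0116). These comparisons share the treated control libraries, and no interaction was called for either gene. *Srsf4* had its lowest levels in the same libraries.

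Of 24 hnRNP genes, whose products often oppose SR proteins at splice sites, *Hnrnph1* rose with TGF-β in the cells labelled knockout, from 292 and 284 CPM to 468 and 422 (0.63, SE 0.13, adjusted p = 0.0247 by edgeR), and none was called in control cells. Between treated genotypes, where 15.0% of all genes were called, 2 of the 24 were, of which *Hnrnpul2* was higher by 0.53 (adjusted p = 0.0334) and *Hnrnpul1* had a log2 fold change of -0.52 (adjusted p = 0.0294). These counts, and those for the next lists, are below the share of all genes called in either direction in the same comparison. Among 16 genes of the U1, U2 and U2AF complexes, 1 was called in any comparison, *Sf3a3* of the U2 particle, lower in the treated libraries labelled knockout (-0.59, SE 0.16, adjusted p = 0.0347). Among 10 factors of nonsense-mediated decay, which removes transcripts with premature stop codons such as those of SR genes, *Upf1*, its central helicase, was higher in the same comparison, 101 and 132 CPM against 77.5 and 60.3 (0.76, SE 0.18, adjusted p = 0.0231). The cold-inducible genes *Cirbp* and *Rbm3*, whose products bind RNA and follow temperature, were not called in any comparison, and between untreated genotypes no gene of these lists was called.

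The genes with the course most like the mean of the 10 members were sought among 13018 other genes. They were found by the Pearson correlation of log2 CPM with the mean standardized level of the members over the 8 libraries. That mean is not a course shared by the members. *Srsf3*, *Srsf6*, *Tra2a* and *Clk1* were highest in replicate 2 of the treated control, whereas *Srsf2* and *Srsf4* were lowest there. *Spcs2* (signal peptidase, r = 0.994), *D3Ertd254e* (0.987), *Gnai3* (a G protein subunit, 0.987), *Taf9* (a subunit of TFIID, 0.985) and *Zfp772* (0.983) came first. All 5 had their highest level in replicate 2 of the treated control and their lowest in an untreated library labelled knockout, *Spcs2* with 104 and 45.4 CPM. For *Clk1* they were *Memo1* (0.980), *Bmpr1a* (a BMP receptor, 0.975), *Mllt11* (0.973), *Gm12696* (0.972) and *Dcaf6* (0.970), again all highest in replicate 2 of the treated control, where *Bmpr1a* was at 165 CPM against 87.6 to 119 in the other 7 libraries. A high r among so many genes over 8 libraries is a description of the order of these libraries.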

How the data were processed

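RNA from 8 libraries of NMuMG cells was sequenced. The authors deposited whole-number counts per gene without normalization, in a single table with a column for each library. According to the methods of the study, reads were aligned with subjunc to mm10 and mm9 and duplicates were removed, while the submitters' processing notes name HISAT2, limma and mm10. Counter and strand setting of the counting are not given in the sources used here. The study names a stranded mRNA kit, but the study and the labels differ on the kit (mRNA or total RNA) and the sequencer. The 37310 gene identifiers are those of GENCODE vM1 on NCBIM37 (mm9). Groups and replicate numbers were taken from the sample titles.

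Genes passing filterByExpr (13028) were fitted with a mean for each group over all libraries, without a block, with edgeR 4.0.16 in R 4.3.3 (TMM factors, glmQLFit, glmQLFTest), which left 4 residual and 5.50 prior degrees of freedom and a biological coefficient of variation of 0.180. Calls needed a log2 fold change beyond 0.5 in size and a p of under 0.05 after Benjamini-Hochberg adjustment, the interaction only the latter. SE is the absolute log2 fold change divided by the square root of F. The 10 members and all lists were chosen with earlier results of these data known. Of the lists, *Srsf12* and *Srpk3* were not tested because of low counts. Named genes are the members, up to 4 called genes of each list in each direction and comparison, and the checks. The genes most like the mean of the members or like *Clk1* in course are named too. Totals ran from 4297832 to 13574397 counts, and the untreated libraries were the shallower ones. Near-identical copies were searched with minimap2 2.31. Alternatives were DESeq2 1.42.0, RLE factors, no filter, the replicate number as a block, only the 4 libraries compared, leaving out each library in turn and no fold threshold.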

Additional observations from a re-analysis of the deposited data

How the results depend on the processing

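The count of members called was 0 under every setting with TGF-β in the cells labelled knockout, between untreated genotypes and for the interaction. With TGF-β in control cells it was 0 but 1 (*Clk1*, 0.60, adjusted p = 0.0143 by edgeR) without the filter on low counts, and 0 to 1 when a library was left out, with *Clk1* called without replicate 1 of the treated control. Between treated genotypes it was 1 (*Srsf4*) but 0 with DESeq2, 0 without the filter, 0 with the replicate block, 0 in a fit of only the 4 libraries compared and 2 without a fold threshold, and it ran from 0 to 2 when a library was left out. It was 2 (*Srsf4* and *Clk1*) without replicate 1 of the treated control. *Srsf4* had an adjusted p of 0.0580 with DESeq2, 0.0518 without the filter, 0.0669 with the block, 0.137 in the fit of 4 libraries and 0.0431 to 0.220 when a library was left out.

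Replicate numbers are shared by the groups, but same-numbered libraries deviated together only between the control groups (r = 0.297), not between the others (r = -0.00915 between the groups labelled knockout, 0.0980 between untreated and -0.473 between treated genotypes, over 13028 genes), and nothing in the labels ties a number to a shared day or culture, so the block was not taken as a pairing. With the replicate block, 150 genes were called between untreated genotypes, against 238. With exchanged numbers in the treated knockout-labelled group, a setting chosen after seeing the data, 1 member was called between treated genotypes.

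Of 640 recomputed log2 fold changes of the members, 591 kept direction and side of the threshold, 4 passed it, 11 lost it and 34 changed sign. None of those that changed sign had been called. *Srsf7* between untreated genotypes was 0.005 and became -0.004 with RLE factors, -0.004 with DESeq2, -0.031 without the filter and -0.017 in the fit of 4 libraries, and *Srsf2* with TGF-β in the cells labelled knockout became 0.023 without the filter. The other changes of sign came from leaving out a library, where the log2 fold changes ran as follows. With TGF-β in control cells *Srsf6* ran from -0.032 to 0.15. With TGF-β in the cells labelled knockout *Srsf1* ran from -0.33 to 0.050, *Srsf2* from -0.12 to 0.092 and *Tra2b* from -0.032 to 0.22. Between untreated genotypes *Srsf2* ran from -0.26 to 0.14, *Srsf5* from -0.14 to 0.19 and *Srsf7* from -0.020 to 0.023. Between treated genotypes *Srsf5* ran from -0.23 to 0.10, *Srsf6* from -0.11 to 0.045, *Tra2b* from -0.15 to 0.24 and *Clk1* from -0.58 to 0.12. For the interaction *Srsf3* ran from -0.049 to 0.19, *Srsf5* from -0.27 to 0.090, *Tra2a* from -0.018 to 0.15 and *Clk1* from -0.46 to 0.23. A group left with 1 library was assumed to vary like the others. For the changes that do not come from leaving out a library, the cause was not tested.

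Over all genes, the number called with TGF-β in control cells was 1194, 2021 without the filter and 470 in the fit of 4 libraries. With TGF-β in the cells labelled knockout it was 889, and 1832 without the filter. Between untreated genotypes it was 238, 428 with DESeq2, 756 without the filter and 804 in the fit of 4 libraries, and between treated genotypes 1959 and 410 in the fit of 4 libraries. For the interaction it was 0, 30 with DESeq2 and 211 without the filter.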
